A study of Mus musculus with 12 samples.

Results

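Cell cycle, centromere and kinesin genes were followed across the liver arrays of a study of PTFC, a citrus flavonoid extract, in mice with diet-induced fatty liver. The members are the genes whose symbol on the array begins with Cenp, Ccna, Ccnb, Ccnd, Ccne, Cdc, Cdk, Cdkn, Mcm, Kif, Aurk, Bub or Plk followed by its letter or number, plus Mki67 and Top2a. They number 157 of the 19084 genes with a named probe, each read by its brightest probe, and none was removed for low signal, so all 157 were tested. The name rule also takes in genes outside cell division, such as the small GTPase Cdc42 and its partners and the kinesins that carry cargo in cells that do not divide. Members were therefore grouped by role, and 25 of the 157 lay in the dimmest 25% of genes. Symbols that the name rule would take in but that no named probe carried, Ccnb1, Cdc20 and Cdk4 among them, were not analysed here.

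Liver RNA of male C57BL/6 mice was hybridised to 12 single-colour arrays, 3 in each of 4 groups. The study kept 24 mice, 6 to a group. PTFC mice ate a high-fat diet (36.1% fat, with 2% cholesterol and 10% lard) for 24 weeks, alone for the first 6 weeks and then with PTFC by mouth for 18 weeks at a daily 50 mg per kg. HFD24 mice ate the same diet for 24 weeks and HFD16 mice for 16 weeks, and ND mice ate a normal diet (12.3% fat) for 24 weeks, all 3 with saline in place of the extract. All mice fasted 12 h before liver was taken. The PTFC and HFD24 mice were 31 to 33 weeks old, the HFD16 mice 23 to 25 weeks, and the ND mice 30 to 33 weeks, so age and diet time move together wherever HFD16 is set against another group. Arrays are numbered 1 to 3 within a group, and no label states that they are separate animals, so p-values measure only the spread between these arrays, which may be technical.

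A cell that commits to division first loads the MCM helicase onto replication origins, under the control of G1 cyclins and their kinases, and then copies its DNA. In mitosis the centromere carries the kinetochore, which holds microtubules, the checkpoint kinases wait until every chromosome is attached, and kinesin motors build the spindle and split the daughter cells. Adult hepatocytes rarely divide, while injury and inflammation can bring hepatocytes, macrophages, lymphocytes and mesenchymal cells of the liver into cycle. Replication genes are classically switched on through E2F sites in their promoters, and mitotic genes through CHR elements (cell cycle genes homology regions) combined with CCAAT boxes.

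The promoter stretches of 6 members show these words. Mcm5 and Mcm6 stand for the helicase, Kif15 for the mitotic kinesins and Top2a for the proliferation markers, and Cenpf and Cenpu are the centromere genes with the largest differences of all members of that role. The E2F words searched were TTTCCCGC, TTTGGCGC, TTTCGCGC and TTTGCCGC, the CHR words TTTGAA and TTCGAA, and the CCAAT word CCAAT, each on both strands. Each line gives the 160 bases just before the transcription start, 5′ to 3′ on the gene's strand, from RefSeq on GRCm38.p6, with matches in capitals. Mcm5 lies at chr8:75109349-75109508 on the plus strand, Mcm6 at chr1:128359706-128359865 on the minus strand and Kif15 at chr9:122950921-122951080 on the plus strand. Top2a lies at chr11:99024190-99024349 on the minus strand, Cenpf at chr1:189688087-189688246 on the minus strand and Cenpu at chr8:46551909-46552068 on the plus strand.
Mcm5: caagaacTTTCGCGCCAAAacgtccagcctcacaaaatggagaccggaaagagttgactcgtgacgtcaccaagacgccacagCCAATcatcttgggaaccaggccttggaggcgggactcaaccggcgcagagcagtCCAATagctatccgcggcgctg
Mcm6: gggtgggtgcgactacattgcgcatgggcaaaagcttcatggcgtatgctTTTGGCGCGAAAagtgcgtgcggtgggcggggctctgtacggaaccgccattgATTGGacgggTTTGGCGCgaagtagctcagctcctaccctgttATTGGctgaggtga
Kif15: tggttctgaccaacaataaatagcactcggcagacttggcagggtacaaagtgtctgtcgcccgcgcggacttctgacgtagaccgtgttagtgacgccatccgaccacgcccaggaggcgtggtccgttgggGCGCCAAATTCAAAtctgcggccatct
Top2a: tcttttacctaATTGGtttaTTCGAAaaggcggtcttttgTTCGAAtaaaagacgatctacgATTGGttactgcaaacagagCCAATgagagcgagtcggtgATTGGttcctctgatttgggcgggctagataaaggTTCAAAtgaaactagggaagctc
Cenpf: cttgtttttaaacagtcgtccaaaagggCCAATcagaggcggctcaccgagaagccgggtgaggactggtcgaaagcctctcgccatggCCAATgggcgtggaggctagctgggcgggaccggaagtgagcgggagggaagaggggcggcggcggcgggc
Cenpu: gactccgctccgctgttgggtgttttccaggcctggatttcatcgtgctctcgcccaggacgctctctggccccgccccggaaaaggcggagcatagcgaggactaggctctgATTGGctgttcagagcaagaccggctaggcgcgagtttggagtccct

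Mcm5 held a pair of overlapping E2F words, which begin 153 and 149 bases before the start, and Mcm6 held 3, at 110, 106 and 47 bases before it. Both also held 2 CCAAT words. Kif15 held an E2F word at 27 and a CHR word at 19 bases before the start, side by side. Top2a held 3 CHR words and 4 CCAAT words, while the Cenpf stretch held 2 CCAAT words and that of Cenpu 1, with no E2F or CHR word in either stretch. The longer Cenpf window held a CHR word that begins 3 bases after the start.

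Over windows of 300 bases (250 before and 50 after the start), 136 members and 14967 genes of the array had a sequence, and a gene counted where any of its windows held a word. An E2F word stood in 54.5% of the origin licensing genes (6 of 11), 19% of the centromere genes and 20% of the mitotic kinesins, against 3.57% of all genes on the array. A CHR word stood in both proliferation markers, 90% of the mitotic kinesins (9 of 10), 50% of the mitotic kinases and checkpoint genes and 36.4% of the licensing genes, against 18.2% of all genes. CCAAT stood in 55.1% of the members, against 41.8% of all genes. Among the transport kinesins, which share the family name but not the role, no window held an E2F word and 19% held a CHR word. A CHR word stood in 40% of members that rose in HFD24 against ND (10 of 25) and 50% of those that fell (5 of 10). An E2F word stood in 16% and 10% of them, so the printed stretches do not stand for the members of either direction. These are matches of letters, given as a description with no test, and no match says only that these words are not in the window. Sites of different motifs overlapped in 2 members.

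**Figure D1:**
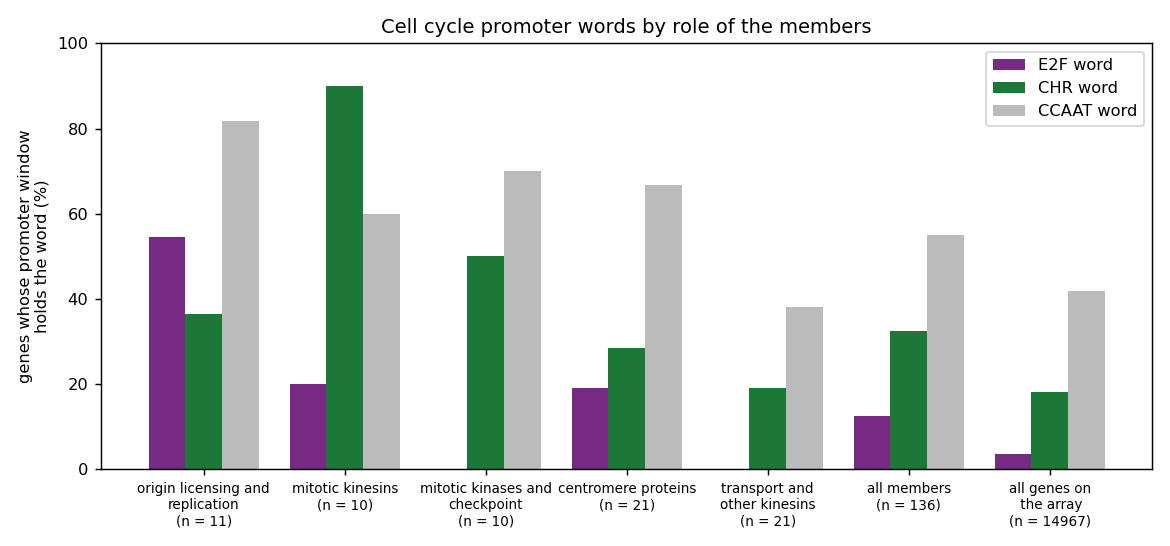
Share of genes (%, vertical axis) whose promoter window of 300 bases holds an E2F, CHR or CCAAT word, by role of the members, with all members and all genes on the array at the right; n is the number of genes with a window. The E2F share of origin licensing genes is 54.5% and the CHR share of mitotic kinesins 90%, against 3.57% and 18.2% of all genes.

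Median deposited intensity lay between 249 and 408 over the 12 arrays. The smallest step between values, which one scaling factor per array would leave, was 1.23 to 1.46 on the ND arrays and 0.675 to 1.12 on the other 9, so it moves with the diet. The median correlation across genes, which are not independent replicates, was 0.988 within groups and 0.981 between them. All 7 measured hepatocyte markers gave signal, with a summed normalized intensity of 1365536 to 1616996 over the 12 arrays. In the bulk tissue, fewer cells of a type and less RNA per cell cannot be told apart. The summed signal of 7 measured macrophage markers was 51804 to 70097 on the PTFC arrays, 90590.5 to 138392 on the HFD24 arrays, 32482 to 119271 on the HFD16 arrays and 13424 to 34542 on the ND arrays. That of 7 T and NK cell markers was 4047 to 4303 on PTFC, 5150.4 to 6417 on HFD24, 4362 to 11065 on HFD16 and 3746 to 4281 on ND arrays, and that of 6 stellate cell markers 3771 to 5485, 6243 to 7206, 4308 to 7301 and 2381 to 3270 in the same groups. Of 59 marker genes listed 53 were measured, and none had a normalized value of 0 on any array.

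The comparison of HFD24 with ND addressed what 24 weeks of high-fat diet did to these genes. Origin licensing and replication, mitotic kinases and checkpoint, mitotic kinesins, mitotic cyclins and kinase, and proliferation markers were joined as replication and mitosis roles. They were joined after the values were seen. The joined set leaves out the centromere genes (4 rose, 3 fell) and the G1 and S phase genes (0 rose, 1 fell). Of its 41 members, 11 rose (9.97% of all genes), 1 (Plk3) fell (8.28%) and 29 did not pass. Those that rose include 5 subunits of the MCM helicase, the checkpoint kinase Bub1b, the kinesins Kif23 and Kif15 and the topoisomerase Top2a, which were between 1.56-fold (Mcm4) and 3.82-fold (Bub1b) higher in HFD24. The largest increase was that of Cdk5r1, the activator of the kinase Cdk5, which was 24.6-fold higher, a fold uncertain in size because its ND levels were dim. Centromere genes went both ways, and Cenpu, Cenpf and the S phase cyclin Ccne2 were 9.21-fold, 3.06-fold and 3.54-fold lower. By limma with Benjamini-Hochberg adjustment over all genes, with an adjusted p under 0.05 as the threshold used throughout, 41 of the 157 members (26.1%) passed, against 18.3% of all genes tested. Of these, 28 rose (17.8% of members, 9.97% of all genes) and 13 fell (8.28% of members, 8.28% of all genes), so the share that fell equals the background. The arrays of 39 members lay wholly higher in HFD24 than in ND (24.8%, against 15.5% of all genes) and those of 21 wholly lower (13.4%, against 18.1%). The median difference was 0.07 over the members and -0.06 over all genes on the log2(intensity + 1) scale, which understates the change of dim genes.

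The comparison of PTFC with HFD24 addressed what the extract did on the same diet. Bub1b, Kif23, Kif15 and Mcm5 fell, by 2.58-fold, 2.71-fold, 2.37-fold and 2.12-fold, and Cdk5r1 fell 5.04-fold. Cenpf rose 5.01-fold, Ccne2 3.57-fold and Cdkn1a, which encodes the CDK inhibitor p21, 2.50-fold. In all 16 members passed (10.2%, against 6% of all genes), of which 5 rose (3.18%, against 2.96%) and 11 fell (7.01%, against 3.04%). The arrays of 17 members lay wholly higher in PTFC than in HFD24 (10.8%, against 15.9% of all genes) and those of 38 wholly lower (24.2%, against 15.2%). The median was -0.13 over the members and 0.01 over all genes. This comparison shares the HFD24 arrays with the comparison of HFD24 with ND, so a high or low HFD24 array moves both in opposite directions, and the values are given side by side and not correlated.

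Both counts depended on single arrays and on the scaling. In HFD24 against ND, 16 of the 41 calls held with any 1 of the 12 arrays left out, and the count was 18 without the first ND array, 24 without the second and 19 without the first HFD24 array. Calls over all genes fell in the same fits, from 3483 to 1738, 1900 and 1985. In PTFC against HFD24 the call on Ccne2 held with any 1 array left out, but was lost with the mean of both its probes (0.56, adjusted p = 0.102). The other 15 were lost without at least 1 array. The count there was 1 without the first HFD24 array or without the third PTFC array, 3 without the first PTFC array, 5 without the second, 6 without the second or the third HFD24 array, 8 without the third HFD16 array and 27 without the third ND array. Over all genes 1145 were called in the reported fit, 39 without the first HFD24 array and 11 without the third PTFC array. Without the first PTFC array 467 were called, without the second 354, and without the third ND array 1981. Counts by role with an array left out are to be read beside these. With the scaling step of each array as a covariate, 6 members passed in HFD24 against ND (Cdk5r1 and Cdk14 higher, Ccne2, Cdc42ep5, Cenpu and Plk3 lower) and 26 in PTFC against HFD24. Over all genes 382 and 1697 passed with that covariate. On the authors' scale, with no further normalization, the median of all genes moved to -0.23 in HFD24 against ND and to 0.24 in PTFC against HFD24, and the called members numbered 28 (17 higher, 11 lower) and 9 (9 higher, 0 lower). Over all 19084 genes 3209 and 1660 passed on that scale, against 3483 and 1145 in the reported fit. Of all genes called in HFD24 against ND, 41.3% were higher there, against 54.6% in the reported fit. The shares were 90.5% and 49.3% in PTFC against HFD24. The median of the members was -0.06 and 0.15 on that scale, above the shift of all genes in HFD24 against ND and below it in PTFC against HFD24, as in the reported fit. All 41 and all 16 called members kept their direction in each of the 19 other settings in which they were tested.

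**Figure D2:**
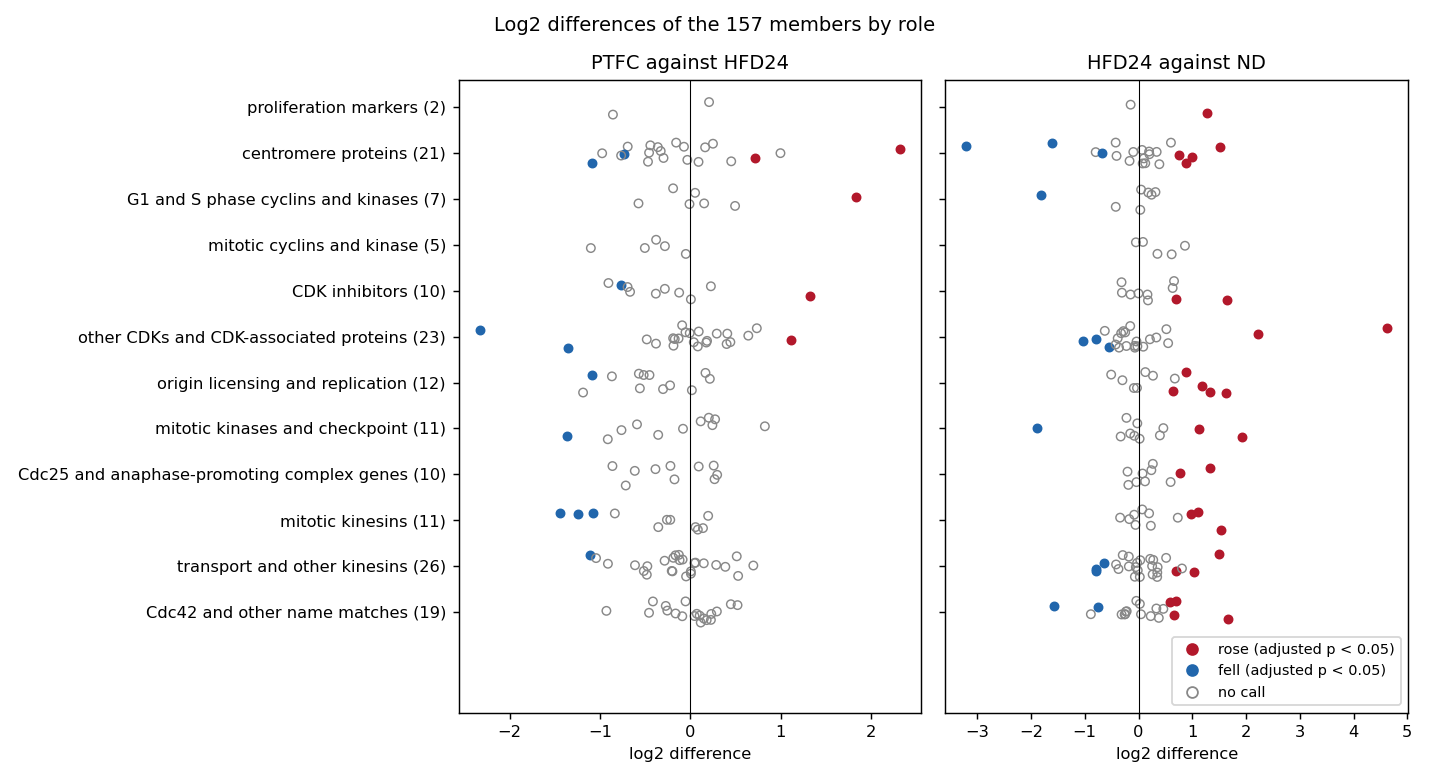
Log2 difference (horizontal axis) of each of the 157 members by role, for PTFC against HFD24 at the left and HFD24 against ND at the right; filled points passed limma at an adjusted p under 0.05, red higher and blue lower, and open points did not. All 5 called licensing genes lie above 0 at the right, and all 3 called mitotic kinesins lie below 0 at the left.

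Of 12 origin licensing and replication genes 5 rose in HFD24 against ND and none fell, against 9.97% and 8.28% of all genes, the shares against which the counts of every role in that comparison are to be read. Those that rose were Mcm2, Mcm3, Mcm4, Mcm5 and Mcm6, all subunits of the ring helicase that unwinds DNA. Mcm3 read 445, 288 and 304 on the PTFC arrays, 668, 535 and 666 on the HFD24 arrays, 481, 561 and 649 on the HFD16 arrays and 166, 139 and 339.8 on the ND arrays in normalized intensity. The HFD24 and HFD16 arrays lay above all 3 ND arrays, among which number 3 was the highest. Mcm3 differed by 1.64 ± 0.29 in HFD24 against ND (log2, SE, adjusted p = 0.00238) and by -0.87 in PTFC against HFD24, which did not pass (adjusted p = 0.0859). Mcm5 read 352, 271 and 213 on the PTFC arrays, 645, 491 and 617 on the HFD24 arrays, 532, 677 and 768 on the HFD16 arrays and 251, 231 and 282 on the ND arrays. Its PTFC arrays lay below every HFD24 and HFD16 array and reached both above and below the ND arrays. Mcm5 rose by 1.19 ± 0.21 in HFD24 against ND (adjusted p = 0.0023). It fell by 1.08 in PTFC against HFD24 (adjusted p = 0.0188). Mcm6 read 371, 339.7 and 194 on the PTFC arrays, 696, 529.8 and 786 on the HFD24 arrays, 617, 695 and 828 on the HFD16 arrays and 206, 178 and 491 on the ND arrays. The third ND array, at 491, came close to the lowest HFD24 array, at 529.8, and the PTFC arrays lay below all HFD24 arrays. Mcm6 rose by 1.33 ± 0.34 in HFD24 against ND (adjusted p = 0.0176), and its -1.19 in PTFC against HFD24 missed the threshold (adjusted p = 0.058).

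Mcm2 rose by 0.88 ± 0.17 and Mcm4 by 0.65 ± 0.19 in HFD24 against ND, and neither passed in PTFC against HFD24 (log2 -0.56 and -0.30). In HFD16 against ND the same 5 subunits rose, by 1.01 for Mcm2, 0.99 for Mcm4, 1.36 for Mcm5, 1.43 for Mcm6 and 1.49 for Mcm3, and Cdc7, the kinase that activates the loaded helicase, rose by 0.85. The HFD16 call on Cdc7 was lost with the replicate number as a block, as well as without 10 of the 12 arrays, any 1 ND array among them, and that on Mcm6 without the third HFD16 array or the first or the second ND array (up to 0.176 and 0.0658). The median over the 12 genes was 0.46 in HFD24 against ND and -0.48 in PTFC against HFD24, and on the authors' scale 0.19 and -0.17, of the same sign. On that scale the count stayed at 5 higher in HFD24 against ND and was 0 in PTFC against HFD24, and with the scaling step as a covariate it was 0 in HFD24 against ND. The HFD24 calls on Mcm2, Mcm3 and Mcm5 held with any 1 array left out. That on Mcm6 was lost without the first or the third HFD24 array or the first or the second ND array (adjusted p up to 0.0823), that on Mcm4 without the first or the third HFD24 array or any 1 ND array (up to 0.124), and the PTFC call on Mcm5 without the third PTFC array or the first HFD24 array (up to 0.103). Macrophage and stellate markers were also higher on the HFD24 arrays than on the ND arrays, and their part in these values was not tested.

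**Figure D3:**
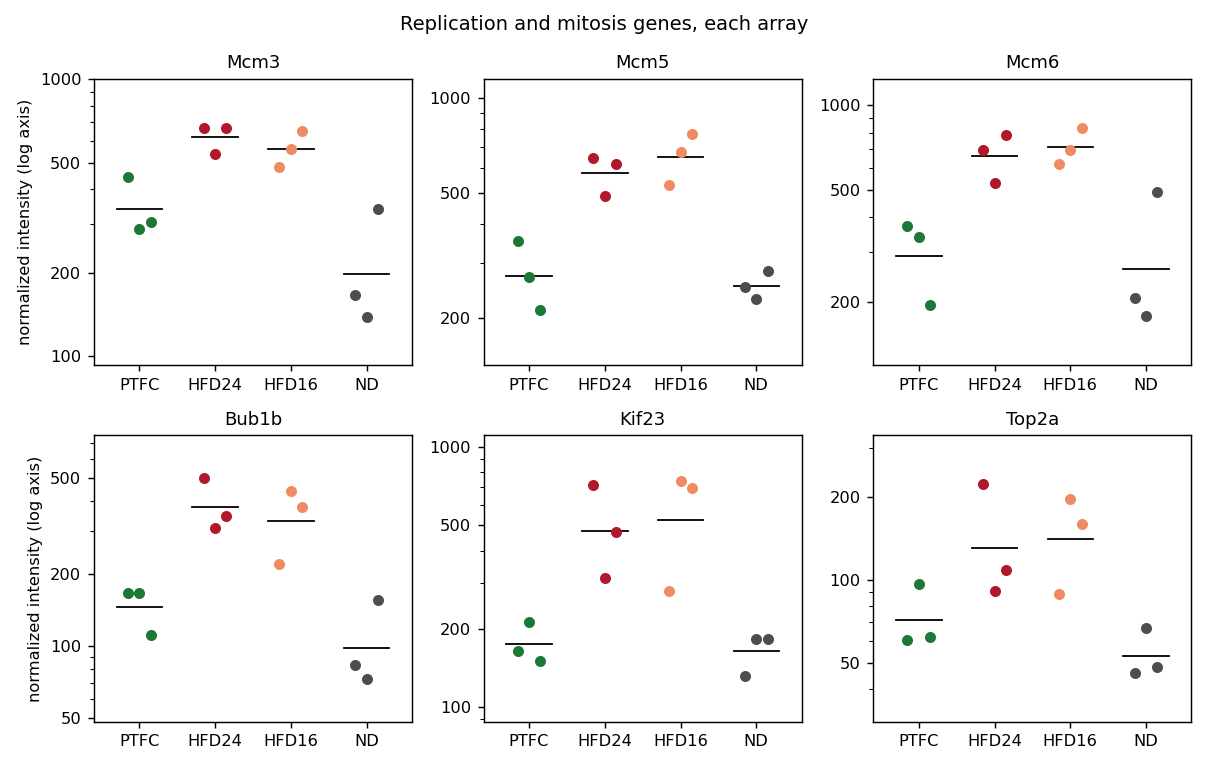
Normalized intensity (log axis) of Mcm3, Mcm5, Mcm6, Bub1b, Kif23 and Top2a on each of the 12 arrays, with the mean of log2 values as a line, for PTFC, HFD24, HFD16 and ND. The 3 HFD24 arrays lie above the 3 ND arrays in all 6 genes, and the PTFC arrays lie below the HFD24 arrays in all of them but Top2a.

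Among the mitotic kinesins, the motors of spindle assembly and cytokinesis, 3 of 11 rose in HFD24 against ND and 3 of 11 fell in PTFC against HFD24, against 9.97% and 3.04% of all genes. Kif23, which bundles the central spindle so that the daughter cells can part, read 164, 214 and 151 on the PTFC arrays, 717, 315 and 472 on the HFD24 arrays, 281, 738 and 696 on the HFD16 arrays and 132, 182 and 184 on the ND arrays. The first HFD24 array and the second HFD16 array were the highest of their groups, and the PTFC and ND arrays overlapped. Kif23 rose by 1.53 ± 0.36 in HFD24 against ND (adjusted p = 0.0107, up to 0.0531 without the first HFD24 array or the first ND array) and fell by 1.44 in PTFC against HFD24 (adjusted p = 0.0366). Kif15, which helps keep the spindle poles apart, read 66.8, 55.6 and 34.2 on the PTFC arrays, 178, 95.6 and 103 on the HFD24 arrays, 81.1, 172 and 151.96 on the HFD16 arrays and 58.0, 49.8 and 59.5 on the ND arrays. The HFD24 arrays lay above both the PTFC and the ND arrays, with a rise of 1.10 ± 0.32 and a fall by 1.24 in PTFC (adjusted p = 0.0303 and 0.0412). The rise was lost without the first HFD24 array or the first or the second ND array (up to 0.128), and its PTFC and ND levels lay in the dimmest 25% of signal, where a fold is least certain. Kif20b, a kinesin of cytokinesis, rose by 0.98 ± 0.31 with overlapping arrays (adjusted p = 0.0439) and was -0.84 in PTFC against HFD24 (adjusted p = 0.119). Kif18b, which trims astral microtubules, was 0.73 in HFD24 against ND (adjusted p = 0.0617) and fell by 1.08 in PTFC (adjusted p = 0.0322).

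These kinesin calls were close to the threshold. Without the first ND array or without the first HFD24 array, 0 of 11 passed in HFD24 against ND, and 1 passed without the second ND array. In PTFC against HFD24, 0 of 11 passed without any 1 of the 6 arrays compared other than the second HFD24 array, and 1 passed without that array. The PTFC calls on Kif15 and Kif18b were lost without any 1 of the 6 arrays compared, and that on Kif23 without 5 of them (adjusted p up to 0.197, 0.16 and 0.17). The HFD24 call on Kif20b was lost without the first or the third PTFC array, the first or the third HFD24 array, the third HFD16 array or the first or the second ND array (up to 0.169). On the authors' scale 1 of 11 rose in HFD24 against ND and 0 fell in PTFC against HFD24, and the median turned to -0.16 and 0.24 there, against 0.20 and -0.26 in the reported fit. With the replicate number as a block, 0 of 11 fell in PTFC against HFD24, where 337 of all genes passed, against 1145 in the reported fit.

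Of 11 mitotic kinases and checkpoint genes, Bub1b and Plk4 rose in HFD24 against ND and Plk3 fell, against 9.97% and 8.28% of all genes. Bub1b, which holds cells at the spindle checkpoint until chromosomes are attached, read 166, 167 and 111 on the PTFC arrays, 501, 308 and 348 on the HFD24 arrays, 218, 442 and 378 on the HFD16 arrays and 83.3, 72.6 and 156 on the ND arrays. The HFD24 arrays lay above the arrays of PTFC and of ND, and those of PTFC and ND overlapped. Bub1b rose by 1.93 ± 0.32 in HFD24 against ND (adjusted p = 0.00195), a call that held with any 1 array left out, and fell by 1.37 in PTFC against HFD24 (adjusted p = 0.0322), a call lost without any 1 of the 6 arrays compared (up to 0.163). Plk4, the kinase of centriole duplication, rose by 1.12 ± 0.26 in HFD24 (adjusted p = 0.0111, 0.0525 without the first HFD24 array) and was -0.91 in PTFC against HFD24 (adjusted p = 0.0575). Plk3, a polo-like kinase known from stress responses, went the other way: it read 7842, 16045 and 12727 on the PTFC arrays, 6267, 7976 and 5752 on the HFD24 arrays, 9162, 17731 and 4678 on the HFD16 arrays and 19920.2, 37737 and 19776 on the ND arrays. All 3 ND arrays lay above the rest, and the difference was -1.90 ± 0.41 in HFD24 against ND (adjusted p = 0.00752), which held with any 1 array left out. It was -1.43 in HFD16 against ND (adjusted p = 0.0307, lost without the first or the third HFD16 array or the first or the second ND array, up to 0.119). In PTFC against HFD24 the value was 0.83, which did not pass (adjusted p = 0.241). Its relative Plk2 was -0.76 in PTFC against HFD24, just short of the threshold (adjusted p = 0.0507). Aurka, the kinase of the spindle poles, rose by 1.02 ± 0.31 in HFD16 against ND and was 0.46 in HFD24 against ND (adjusted p = 0.0405 and 0.331). The HFD16 call was lost with the replicate block, and without the second or the third HFD16 array or any 1 ND array (up to 0.128). On the authors' scale 1 of the 11 genes rose and 1 fell in HFD24 against ND and 0 passed in PTFC against HFD24, where the median turned to 0.09, against -0.08 in the reported fit.

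Both proliferation markers were read. Top2a, the topoisomerase that untangles sister chromatids, read 60.4, 96.5 and 62.1 on the PTFC arrays, 222, 91.0 and 108 on the HFD24 arrays, 88.5, 197 and 158 on the HFD16 arrays and 45.8, 66.7 and 48.1 on the ND arrays. The first HFD24 array stood above the other HFD24 arrays, and HFD24 and ND did not overlap, while PTFC overlapped both groups. Top2a rose by 1.28 ± 0.35 in HFD24 against ND (adjusted p = 0.023), a call lost without the first HFD24 array or the first ND array (up to 0.097), and was -0.86 in PTFC against HFD24 (adjusted p = 0.151). Top2a lay in the dimmest 25% of genes, where a fold is least certain. Mki67, whose protein Ki-67 coats mitotic chromosomes, gave values that depended on the probe. Its brighter probe read 9824, 10453 and 9758 on the PTFC arrays, 7231, 8419 and 10678 on the HFD24 arrays, 6209, 5255 and 7229 on the HFD16 arrays and 7746, 8647 and 13163 on the ND arrays, with differences of -0.15 in HFD24 against ND and 0.21 in PTFC against HFD24 that did not pass (adjusted p = 0.673 and 0.591). Its dimmer probe read 44.8, 88.0 and 59.5 on the PTFC arrays, 214, 102 and 109 on the HFD24 arrays, 103, 203 and 159.7 on the HFD16 arrays and 51.9, 58.2 and 72.3 on the ND arrays. On that probe all HFD24 arrays lay above all ND and all PTFC arrays, with a rise of 1.14 ± 0.32 in HFD24 against ND (adjusted p over all probes = 0.0289) and -1.10 in PTFC against HFD24 (adjusted p = 0.0598).

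Centromere proteins went in both directions: of 21 genes, 4 rose and 3 fell in HFD24 against ND (9.97% and 8.28% of all genes), and 2 rose and 2 fell in PTFC against HFD24 (2.96% and 3.04% of all genes). Cenpi and Cenph, partners in the inner kinetochore, rose by 1.51 ± 0.29 and 0.99 ± 0.27 in HFD24 (adjusted p = 0.00399 and 0.0232), both with ND levels in the dimmest 25%. Cenpi read 35.5, 49.6 and 29.1 on the PTFC arrays, 90.7, 66.1 and 85.5 on the HFD24 arrays, 58.5, 74.3 and 84.0 on the HFD16 arrays and 18.8, 24.8 and 43.8 on the ND arrays. Its HFD24 arrays lay above all PTFC and ND arrays. It fell by 1.09 in PTFC against HFD24 (adjusted p = 0.0458), while Cenph, at -0.98, missed the threshold there (adjusted p = 0.0509). Cenpj, which lengthens centrioles and works at the centrosome more than at the centromere, read 397, 467 and 430.3 on the PTFC arrays, 862, 634 and 671 on the HFD24 arrays, 752, 1056 and 835 on the HFD16 arrays and 362, 363 and 437 on the ND arrays. It rose by 0.89 ± 0.18 and fell by 0.73 in PTFC (adjusted p = 0.00482 and 0.0348), with the HFD24 and HFD16 arrays above all others. Cenpp, Cenpo and Cenpu belong to one complex of the inner kinetochore and did not move together: Cenpp rose by 0.75 ± 0.22 in HFD24 against ND, and Cenpo and Cenpu fell (adjusted p = 0.0313 for Cenpp).

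Cenpu, the member with the largest fall, read 165, 197 and 107 on the PTFC arrays, 355, 229.7 and 212 on the HFD24 arrays, 164, 215 and 204 on the HFD16 arrays and 4671, 1359 and 2144 on the ND arrays. All 9 arrays of mice on the high-fat diet lay between 107 and 355, with or without the extract, below the lowest ND array at 1359. The ND arrays themselves spread over a wide range. The difference was -3.20 ± 0.37 in HFD24 against ND, -3.62 ± 0.37 in HFD16 against ND and -3.97 ± 0.37 in PTFC against ND (adjusted p = 0.000341, 0.000383 and 0.000269), and each held with any 1 array left out and under the 7 other settings. In PTFC against HFD24 it was -0.77 (adjusted p = 0.227). The array carried a single probe for it, so no second probe tests this value.

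Cenpf, a large kinetochore protein made in G2 and mitosis, read 2419, 1508 and 1648 on the PTFC arrays, 317, 269 and 556 on the HFD24 arrays, 1186, 602 and 1145 on the HFD16 arrays and 1441, 1349 and 704 on the ND arrays. The HFD24 arrays were the lowest, below every array of the other 3 groups, and the HFD16 and ND arrays overlapped. Cenpf fell by 1.61 ± 0.35 in HFD24 against ND (adjusted p = 0.00752), a call that held with any 1 array left out, and was -0.25 in HFD16 against ND (adjusted p = 0.66). It rose by 2.33 ± 0.35 in PTFC against HFD24 (adjusted p = 0.0105), and that call was lost without the third PTFC array or the first HFD24 array (up to 0.0586). Its direction was thus opposite to that of Kif23, Bub1b and Top2a in both comparisons, and it too had 1 probe. Cenpo read 347, 377 and 436 on the PTFC arrays, 204, 250.2 and 253 on the HFD24 arrays, 228, 223 and 229 on the HFD16 arrays and 419.6, 427 and 295 on the ND arrays, with the PTFC arrays above all HFD24 and HFD16 arrays. It fell by 0.68 in HFD24 against ND and rose by 0.71 ± 0.17 in PTFC against HFD24 (adjusted p = 0.0179 and 0.0358).

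Leaving out 1 array left 2 to 4 centromere genes higher and 2 to 5 lower in HFD24 against ND, and 0 to 3 higher and 0 to 3 lower in PTFC against HFD24. In HFD24 against ND, Cenpi and Cenpj held throughout, and the call on Cenph was lost without the first or the third HFD24 array or the first or the second ND array. The call on Cenpp was lost without the first or the second HFD24 array or any 1 ND array and that on Cenpo without the first HFD24 array or the first or the second ND array (adjusted p up to 0.0999, 0.122 and 0.0849). In PTFC against HFD24 the calls on Cenpi, Cenpj and Cenpo were each lost without any 1 of the 6 arrays compared (up to 0.208, 0.146 and 0.171). With the authors' own scale 2 rose and 3 fell in HFD24 against ND, and 3 rose and 0 fell in PTFC against HFD24. The median of the role was 0.10 and -0.30 in the reported fit and 0.05 and 0.07 on that scale.

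Ccne2, cyclin E2, which drives entry into S phase with Cdk2, was the single member of its role to pass in either of the 2 comparisons. It read 2609, 2161 and 2871 on the PTFC arrays, 635, 720.3 and 773 on the HFD24 arrays, 1299, 1098 and 1134 on the HFD16 arrays and 3261, 2459.7 and 1952 on the ND arrays. The HFD24 arrays were the lowest, the HFD16 arrays came next, and the PTFC and ND arrays overlapped above them. Ccne2 fell by 1.82 ± 0.20 in HFD24 against ND and by 1.09 in HFD16 against ND (adjusted p = 0.000281 and 0.00418), rose by 1.84 ± 0.20 in PTFC against HFD24 (adjusted p = 0.0033), and was 0.02 ± 0.20 in PTFC against ND (adjusted p = 0.983). Those 3 calls held with any 1 array left out, but none passed with the mean of both probes, at -0.54 in HFD24 against ND, 0.56 in PTFC against HFD24 and -0.01 in HFD16 against ND (adjusted p = 0.0734, 0.102 and 0.979). A much dimmer second probe of Ccne2 read 24.8, 31.5 and 22.6 on the PTFC arrays, 53.3, 36.0 and 42.4 on the HFD24 arrays, 81.1, 45.3 and 44.8 on the HFD16 arrays and 29.3, 14.1 and 40.2 on the ND arrays. It went the opposite way, with 0.74 ± 0.34 in HFD24 against ND and -0.71 ± 0.34 in PTFC against HFD24 (adjusted p over all probes = 0.154 and 0.217), and it passed in HFD16 against ND at 1.07 (adjusted p = 0.0468). The direction of Ccne2 therefore rests on its brighter probe.

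**Figure D4:**
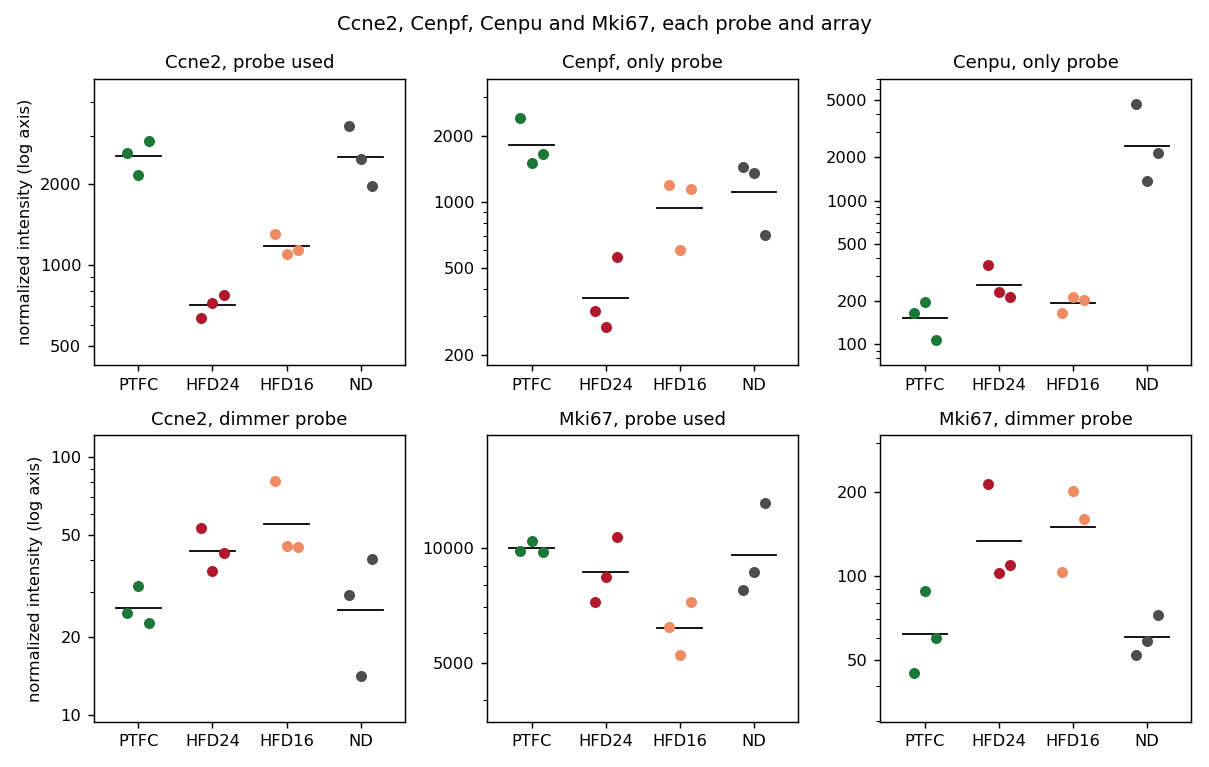
Normalized intensity (log axis) on each of the 12 arrays, with the mean of log2 values as a line, for both probes of Ccne2, both probes of Mki67 and the single probes of Cenpf and Cenpu. The HFD24 arrays are lowest for the brighter Ccne2 probe and for Cenpf, all 9 arrays of the high-fat diet lie below the ND arrays for Cenpu, and the 2 probes of Ccne2 and of Mki67 differ in pattern.

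The other G1 and S phase genes did not pass in these 2 comparisons. Ccnd1, cyclin D1, was 0.03 ± 0.27 in HFD24 against ND and 0.50 ± 0.27 in PTFC against HFD24, and Ccne1, cyclin E1, was 0.05 and -0.57 (adjusted p = 0.948, 0.276, 0.921 and 0.193). Ccnd2, cyclin D2, was 0.32 in HFD24 against ND and rose by 0.89 ± 0.25 in HFD16 against ND (adjusted p = 0.406 and 0.0267). The HFD16 call was lost without the second or the third HFD16 array or the first or the third ND array (up to 0.0933). Of the 5 mitotic cyclins and kinase genes none passed in either comparison. Ccna2, cyclin A2 of S phase and G2, read 182, 355 and 150.0 on the PTFC arrays, 614, 335 and 469 on the HFD24 arrays, 351, 895 and 571 on the HFD16 arrays and 225, 225 and 315 on the ND arrays. The second PTFC array was the highest of its group and overlapped the HFD24 arrays. The values were 0.86 ± 0.36 in HFD24 against ND and -1.10 ± 0.36 in PTFC against HFD24 (adjusted p = 0.115 and 0.0852). Ccna2 rose by 1.16 in HFD16 against ND (adjusted p = 0.0418), a call lost with the replicate block (adjusted p = 0.0575) and without the first PTFC array, the third HFD24 array, the second or the third HFD16 array or the first or the second ND array (up to 0.15). Ccnb2, cyclin B2, was 0.62 in HFD24 against ND (adjusted p = 0.0564). Ccna1, the germ cell cyclin A1, was -0.38 in PTFC against HFD24 (adjusted p = 0.243). Cdk1, the mitotic kinase itself, read 32.0 to 48.7 on all 12 arrays, in the dimmest 25% of signal, and passed in no comparison.

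Of the CDK inhibitors, Cdkn1a rose in PTFC and Cdkn1b and Cdkn3 rose in HFD24. Cdkn1a (p21), which is induced by p53 and other stress signals, read 33737, 41278 and 26486 on the PTFC arrays, 11157, 12264 and 17155 on the HFD24 arrays, 5678, 5537 and 6665 on the HFD16 arrays and 10331, 8557 and 18772 on the ND arrays. All 3 PTFC arrays lay above all 9 others, and the HFD16 arrays lay below all others. Cdkn1a rose by 1.32 ± 0.27 in PTFC against HFD24 and by 1.49 ± 0.27 in PTFC against ND (adjusted p = 0.0231 and 0.0156), fell by 1.00 in HFD16 against ND (adjusted p = 0.0235), and was 0.17 ± 0.27 in HFD24 against ND (adjusted p = 0.707). The call against HFD24 was lost without any 1 PTFC array or the first or the second HFD24 array (up to 0.0937), that against ND without the second PTFC array or the first ND array (up to 0.0853), and that of HFD16 without the second or the third HFD16 array or the first or the third ND array (up to 0.0677). Cdkn1b (p27), the inhibitor of resting cells, moved the other way: it read 855, 713 and 654 on the PTFC arrays, 1005, 1286 and 1530.1 on the HFD24 arrays, 1085, 1186 and 988 on the HFD16 arrays and 672, 679.9 and 1003 on the ND arrays. The HFD24 arrays lay above all PTFC and ND arrays, by 0.70 ± 0.21 against ND and with a fall by 0.77 in PTFC (adjusted p = 0.0313 and 0.045). The first of these calls was lost without the second or the third HFD24 array or the first or the second ND array (up to 0.129) and the second without 9 of the 12 arrays (up to 0.197). Cdkn3, a phosphatase that acts on CDKs and is high in dividing cells, rose by 1.65 ± 0.48 in HFD24 and by 2.24 ± 0.48 in HFD16 against ND (adjusted p = 0.0306 and 0.0088) and was -0.91 in PTFC against HFD24 (adjusted p = 0.267). Its HFD24 call was lost without the first or the third HFD24 array or the first or the third ND array (up to 0.126). Cdkn3 also lay in the dimmest 25% of genes, so its folds are uncertain in size. The remaining inhibitors did not pass in the 2 main comparisons, so 2 of 10 rose in HFD24 against ND (9.97% of all genes) and 1 rose and 1 fell in PTFC against HFD24 (2.96% and 3.04%). On the authors' scale, 0 passed in HFD24 against ND, and in PTFC against HFD24 1 (Cdkn1a) rose and 0 fell.

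The other CDKs and their partners held the member with the largest rise. Cdk5r1 (p35), which activates Cdk5 and is best known from neurons, read 168, 492 and 94.7 on the PTFC arrays, 928, 1135 and 965 on the HFD24 arrays, 193, 1149 and 613 on the HFD16 arrays and 32.7, 34.03 and 56.7 on the ND arrays. The ND arrays were low and close together, the first HFD16 array was far below the other HFD16 arrays, and the PTFC arrays spread between ND and HFD24, with the second at 492. It rose by 4.62 ± 0.59 in HFD24 and 3.66 ± 0.59 in HFD16 against ND (adjusted p = 0.000606 and 0.00272), calls that held with any 1 array left out. It fell by 2.33 ± 0.59 in PTFC against HFD24 (adjusted p = 0.0402), a call lost without the first or the third PTFC array, any 1 HFD24 array, the third HFD16 array or the second ND array (up to 0.195). Cdk5r2 (p39), the related activator, ran opposite: it read 1772, 1892 and 2695 on the PTFC arrays, 804, 1191 and 919 on the HFD24 arrays, 1257, 1403 and 1226 on the HFD16 arrays and 2555, 2666 and 1098 on the ND arrays. The HFD24 arrays overlapped the third ND array, and the PTFC arrays lay above all HFD24 arrays. It fell by 1.03 in HFD24 against ND and rose by 1.12 ± 0.30 in PTFC against HFD24 (adjusted p = 0.0306 and 0.045), and its second probe passed both ways too, at -0.67 and 0.93. The kinase Cdk5 itself was 0.33 in HFD24 against ND and 0.41 in PTFC against HFD24 (adjusted p = 0.194 and 0.156), and rose by 0.74 ± 0.17 in PTFC against ND (adjusted p = 0.0409), a call lost without 7 of the 12 arrays, the first ND array and all 3 PTFC arrays among them (up to 0.155).

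Cdk14, a membrane-bound kinase that pairs with cyclin Y, read 137, 137 and 101 on the PTFC arrays, 407, 317 and 248 on the HFD24 arrays, 172, 368 and 279 on the HFD16 arrays and 46.9, 67.5 and 95.1 on the ND arrays. The HFD24 arrays lay above all PTFC and ND arrays, with a rise of 2.23 ± 0.30 against ND and a fall by 1.35 in PTFC (adjusted p = 0.000805 and 0.028). The rise held with any 1 array left out and with the scaling step as a covariate, and the fall was lost without any 1 PTFC array or the first or the second HFD24 array (up to 0.146). Cdk3 and Cdk15 fell by 0.78 and 0.54 in HFD24 against ND (adjusted p = 0.0432 and 0.0482), calls lost without 7 and 10 of the 12 arrays, the first ND and the first HFD24 array among them (up to 0.176 and 0.204). The call on Cdk5r2 was lost without the first or the third HFD24 array or the first or the second ND array in HFD24 against ND (up to 0.134) and without any 1 PTFC array, any 1 HFD24 array or the third HFD16 array in PTFC against HFD24 (up to 0.207). Of the 23 genes of this role, 2 rose and 3 fell in HFD24 against ND (9.97% and 8.28% of all genes) and 1 rose and 2 fell in PTFC against HFD24 (2.96% and 3.04%), while on the authors' scale 2 rose and 1 fell, and 2 rose and 0 fell.

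Among 10 Cdc25 and anaphase-promoting complex genes, 2 rose in HFD24 against ND (9.97% of all genes) and none passed in PTFC against HFD24. Cdc14a, a phosphatase of mitotic exit, read 208, 229 and 171 on the PTFC arrays, 450.2, 285 and 386 on the HFD24 arrays, 337, 464 and 362 on the HFD16 arrays and 112.37, 132 and 209 on the ND arrays. Its HFD24 arrays lay above all ND and PTFC arrays, and the rise of 1.33 ± 0.24 (adjusted p = 0.00289) held with any 1 array left out, while -0.86 in PTFC against HFD24 did not pass (adjusted p = 0.0529). Cdc25b, the phosphatase that starts Cdk1 activation, rose by 0.78 ± 0.23 (adjusted p = 0.0355), a call lost without the first or the third HFD24 array or the first or the third ND array (up to 0.142). Cdc25a, its counterpart of S phase entry, was -0.71 in PTFC against HFD24 (adjusted p = 0.119).

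The 26 transport and other kinesins, whose members mostly move vesicles and organelles, had 3 higher and 3 lower in HFD24 against ND (9.97% and 8.28% of all genes), and 1 fell in PTFC against HFD24 (3.04%), shares near those of all genes. Kif21b, which moves along and steers microtubules in neurons and immune cells, read 392, 584 and 438 on the PTFC arrays, 1256, 973 and 826 on the HFD24 arrays, 429, 1198 and 879.6 on the HFD16 arrays and 328, 384 and 361 on the ND arrays. The HFD24 arrays lay above all PTFC and ND arrays, with a rise of 1.49 ± 0.31 (adjusted p = 0.00555) that held with any 1 array left out. In PTFC it fell by 1.11 (adjusted p = 0.0498), a call lost without 9 of the 12 arrays (up to 0.194). Kif24, which acts at centrioles and restrains cilia, read 674, 449 and 668 on the PTFC arrays, 320.0, 404 and 365 on the HFD24 arrays, 729.7, 531 and 543 on the HFD16 arrays and 700.3, 631 and 554 on the ND arrays. It fell by 0.79 in HFD24 against ND (adjusted p = 0.0157), lost without the first HFD24 array or the first or the second ND array (up to 0.0723), and was 0.70 in PTFC against HFD24 (adjusted p = 0.0548). Kif5a, a motor of axonal transport, fell by 0.78 on its brighter probe (adjusted p = 0.0373, lost without the first HFD24 array or the first or the second ND array, up to 0.155). Its dimmer probe gave 0.59 in HFD24 against ND and -1.05 in PTFC against HFD24, so its direction depended on the probe. Kif16b, a motor of early endosomes, and Kif6 rose by 0.69 and 1.03, and Kif26b fell by 0.65 (adjusted p = 0.04, 0.0387 and 0.0373), each lost without 5 or 6 of the 12 arrays, the first ND and the first HFD24 array among them (up to 0.158, 0.176 and 0.129). In the fit without the dimmest 25% of genes, Kif16b was called and Kif6 and Kif26b were not.

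Cdc42 and the other genes taken in by name alone, 19 in all, had 4 higher and 2 lower in HFD24 against ND (9.97% and 8.28% of all genes) and none past the test in PTFC against HFD24. Cdc42ep3, an effector of Cdc42 that shapes the actin and septin skeleton, read 282, 589 and 367 on the PTFC arrays, 822, 607 and 845 on the HFD24 arrays, 488, 1123 and 728 on the HFD16 arrays and 229, 229 and 253 on the ND arrays, and rose by 1.66 ± 0.30 in HFD24 against ND (adjusted p = 0.00276). Its -0.93 in PTFC against HFD24 did not pass (adjusted p = 0.0796), although the arrays did not overlap. The related Cdc42ep5 read 5036, 4847 and 5190.1 on the PTFC arrays, 3156, 3978 and 3398 on the HFD24 arrays, 4190.4, 4307 and 3598 on the HFD16 arrays and 10734, 15199 and 6922 on the ND arrays. All ND arrays lay above the rest, and it fell by 1.58 in HFD24 against ND and by 1.05 in PTFC against ND (adjusted p = 0.00113 and 0.0341). The HFD24 call held with any 1 array left out, and the PTFC call was lost without any 1 PTFC array, the third HFD16 array or the first or the second ND array (up to 0.131). Cdc42ep2, Cdc42ep4 and Cdc42se1, further effectors, rose by 0.59, 0.70 and 0.66, and Cdc42bpa, a kinase that acts on myosin below Cdc42, fell by 0.76 (adjusted p = 0.0154, 0.0211, 0.0248 and 0.0222), the first lost without the second ND array (up to 0.0536). The other 3 were each lost without 4 arrays, the first ND array among them (up to 0.095, 0.106 and 0.0896). Cdc37l1, a relative of the kinase cochaperone Cdc37, was -0.41 in PTFC against HFD24 (adjusted p = 0.176).

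**Figure D5:**
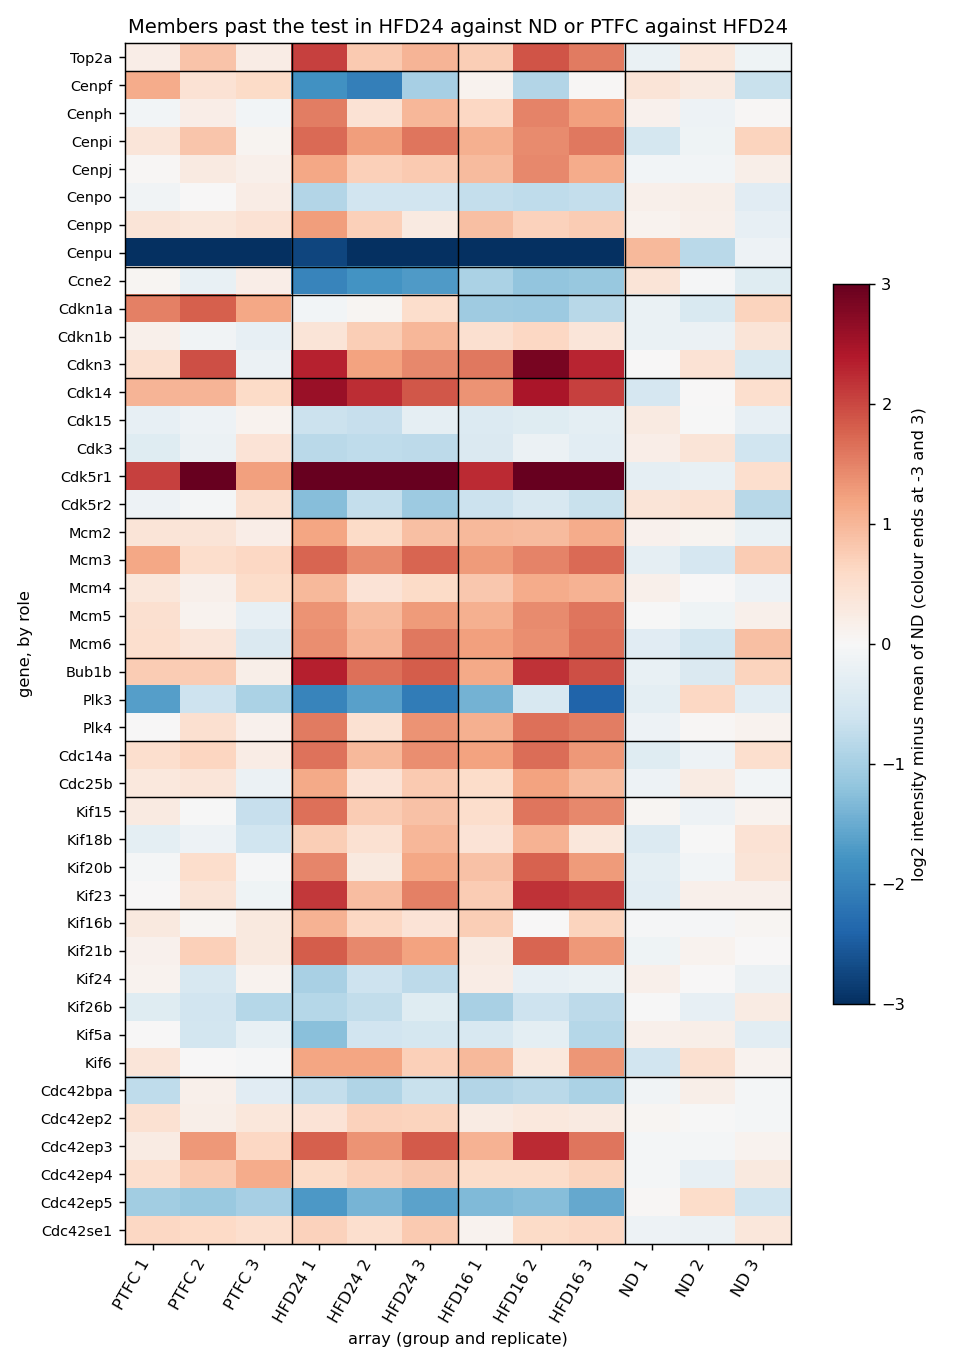
Log2 intensity minus the mean of the ND arrays for the 43 members that passed in HFD24 against ND or PTFC against HFD24 (rows, by role, with lines between roles) on the 12 arrays (columns, PTFC, HFD24, HFD16 and ND); red is higher and blue lower than ND, and the colour ends at -3 and 3. The Mcm3, Mcm5, Mcm6, Bub1b, Kif23 and Kif15 rows are redder on the 3 HFD24 arrays than on the 3 PTFC arrays, while the Cenpf and Ccne2 rows are bluest on the HFD24 arrays.

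The comparison of HFD16 with ND addressed the earlier time of the diet. Of the 41 members with replication and mitosis roles, which were joined after the values were seen, 14 rose (10% of all genes). Of the rest, 1 fell (8.11% of all genes) and 26 did not pass. In HFD16 against ND 41 members passed (26.1%, against 18.1% of all genes), of which 31 rose (19.7%, against 10%) and 10 fell (6.37%, against 8.11%). Beside the Mcm genes, Kif23, Bub1b, Plk4 and Top2a rose by 1.67, 1.75, 1.42 and 1.39, and Cenpc1 (CENP-C), which anchors the kinetochore to centromeric chromatin, by 1.08 ± 0.20 (adjusted p = 0.00865, 0.00462, 0.00472, 0.0174 and 0.00444). Of these calls, that on Top2a was lost without the second or the third HFD16 array or the first ND array (up to 0.0693). Cdk14 rose by 1.94 and Cdc42ep5 fell by 1.37 (adjusted p = 0.00222 and 0.00315), and both calls held with any 1 array left out. Cdk1, Ccnd1 and the brighter Mki67 probe, at 0.16, 0.63 and -0.63, did not pass (adjusted p = 0.616, 0.116 and 0.0541). With the replicate number as a block, 38 members passed, 37 of them among the 41, and 2766 of all genes. The calls on Aurka, Ccna2, Cdc7 and Cenpm were lost, and the brighter Mki67 probe was called lower (-0.63, adjusted p = 0.0397). In the centromere role 7 of 21 rose (10% of all genes) and 3 fell (8.11%). This comparison shares the ND arrays with HFD24 against ND. The count was 21 without the first ND array or without the third HFD16 array, and 1 (Cenpu) with the scaling step as a covariate. Over all genes 3462 passed in the reported fit, and 1340, 1584 and 101 in these fits in turn.

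Between the 2 diet times themselves no member passed. In HFD24 against HFD16 limma called 0 of 157 members (0.0367% of all genes were called), and 14 members (8.92%, against 9.78% of all genes) had an unadjusted p under 0.05. The 3 higher members of smallest p were Cdkn1a, at 1.16 ± 0.27, Cdkn2a, which encodes p16 and ARF, at 0.66, and Cenpv, at 0.50. Their adjusted p in the limma fit were 0.23, 0.304 and 0.454. The 3 lower ones were Cenpf, at -1.37 ± 0.35, Ccne2, at -0.73 ± 0.20, and Kif24, at -0.72, with adjusted p of 0.287, 0.287 and 0.287. A miss of the threshold does not show that the levels were the same.

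PTFC arrays were also set against ND. Of the 157 members 5 passed (3.18%, against 2.33% of all genes): Cdkn1a, Cdk5 and Cdc42ep4 rose (1.04% of all genes), the last by 0.80 ± 0.19 (adjusted p = 0.0435, up to 0.18 without 1 of 7 arrays), and Cenpu and Cdc42ep5 fell (1.29% of all genes). Cdkn2aip, whose protein binds ARF, was -0.70 and missed the threshold (adjusted p = 0.056). No member of the licensing, mitotic kinesin or mitotic kinase roles passed. Mcm5, for one, was 0.10 ± 0.21, Kif23 0.09 ± 0.36 and Bub1b 0.56 ± 0.32 in PTFC against ND (log2, SE). The count was 1 without the first ND array or without the second PTFC array, that member being Cenpu, and lay between 1 and 7 over the 12 arrays left out in turn. With the array median as the only scaling it was 2, and with the scaling step as a covariate 1. Over all genes 445 passed in the reported fit, 65 without the first ND array and 157 without the second PTFC array. With the array median 229 passed, and with the covariate 25.

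Genes of the same processes that the name rule leaves out were read from a list of 56, of which 51 had a probe. The list was chosen with earlier results of these data known. In HFD24 against ND 7 of the 51 rose and 0 fell (median 0.13), against 9.97% and 8.28% of all genes. Of the same 51, 0 rose and 4 fell in PTFC against HFD24 (median -0.22), against 2.96% and 3.04% of all genes. Foxm1, the transcription factor that drives mitotic genes, read 38.7, 38.7 and 21.9 on the PTFC arrays, 126, 67.0 and 114.19 on the HFD24 arrays, 63.9, 116 and 109 on the HFD16 arrays and 40.2, 18.8 and 40.2 on the ND arrays. The HFD24 arrays lay above all PTFC and ND arrays, and Foxm1 rose by 1.63 ± 0.35 and fell by 1.60 in PTFC (adjusted p = 0.00751 and 0.0275). Uhrf1, which carries DNA methylation through replication, read 101, 80.6 and 80.0 on the PTFC arrays, 348, 202 and 439 on the HFD24 arrays, 152.33, 583 and 580.2 on the HFD16 arrays and 46.9, 78.5 and 83.3 on the ND arrays. It rose by 2.20 ± 0.44 and fell by 1.84 in PTFC (adjusted p = 0.00508 and 0.0344), with no overlap of HFD24 with PTFC or ND. Pola1, the catalytic subunit of the polymerase that starts DNA strands, rose by 1.20 ± 0.25 in HFD24 against ND and fell by 1.22 in PTFC against HFD24 (adjusted p = 0.00614 and 0.0231). Gins2, a helicase partner of the Mcm ring, rose by 1.35 ± 0.22 in HFD24 against ND (adjusted p = 0.00171). Lig1, which joins Okazaki fragments, fell by 0.91 in PTFC against HFD24 (adjusted p = 0.0196). In HFD16 against ND 11 of the 51 rose (10% of all genes). The list kept 5 to 11 genes higher in HFD24 against ND with 1 array left out, but 0 to 8 lower in PTFC against HFD24, where none passed without the first HFD24 array, the second PTFC array or the third PTFC array. On the authors' scale 7 rose and 2 fell in HFD24 against ND (median -0.08), and 1 rose and 2 fell in PTFC against HFD24 (median 0.04). With the scaling step as a covariate 0 passed in HFD24 against ND and 5 fell in PTFC against HFD24.

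The markers of other liver cells moved in the same comparisons. Over all genes 9.97% rose and 8.28% fell in HFD24 against ND, and 2.96% rose and 3.04% fell in PTFC against HFD24. All 7 macrophage markers, 5 of 6 stellate, 3 of 5 endothelial, 2 of 3 neutrophil and 2 of 7 T and NK cell markers rose in HFD24 against ND, while 2 of 5 cholangiocyte markers fell and, of 4 B and plasma cell markers, 1 rose and 1 fell. In PTFC against HFD24, 0 of 7 macrophage and 0 of 7 T and NK cell markers passed, while 3 of 6 stellate markers (Col1a2, Col3a1 and Pdgfrb) and 1 of 3 neutrophil markers (S100a9) fell. The medians of the macrophage and of the T and NK cell markers were still -1.03 and -0.72. In each of these lists the arrays of 4 of 7 lay wholly lower in PTFC, against 15.2% of all genes. There 1 of 5 cholangiocyte markers rose, and of 4 B and plasma cell markers 1 rose and 1 fell. Of 7 hepatocyte markers 1 fell in HFD24 against ND and none passed in PTFC against HFD24. Of 4 neuron markers 1 rose in HFD24 against ND, and the 2 erythroid and 3 testis markers passed in neither comparison. The part of these markers in the differences of the replication and mitosis genes was not tested.

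Other probes of the members gave mixed directions. Of the 157 members 33 had more than 1 probe, with 35 probes beside the brightest ones. In HFD24 against ND 19 of the 35 had the sign of the brightest probe and 16 the opposite sign, and in PTFC against HFD24 16 and 19. Of the other probes that belonged to genes called in HFD24 against ND, 1 of 3 had the same sign, that of Cdk5r2.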

How the data were processed

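Linear array intensities of 12 liver RNA samples, 3 per group, were used as the authors deposited them, on a scale with 1 factor per array by its steps; their scaling and background steps are not given in the sources used here. Intensities, with values below 0 (none in a member's probe) set to 0, were taken to log2(intensity + 1) and quantile normalized. Each of the 19084 named genes was read by its brightest probe on average, and 4547 of 26423 probes with no gene named in the platform table were left out. One limma fit (limma 3.58.1, R 4.3.3) over the 4 groups, with a mean-variance trend, tested 5 comparisons with no block and no filter, and p-values were adjusted by Benjamini-Hochberg over all genes. An exact permutation of 3 against 3 arrays cannot go below 0.1. The fit was tested on simulated data.

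Members and lists were chosen with earlier results of these data known. Genes were named by a rule: up to 10 higher and 10 lower past the test without overlap, the 2 of smallest p in each role, and a list named throughout that includes Cenpu, Cenpf and Ccne2. Up to 5 each way were named in the other comparisons. Further members of a role were named after their values were seen. Arrays with the same number were correlated across genes after the group mean of each gene was subtracted. These correlations were 0.105 to 0.147 in HFD16 against ND and -0.288 to 0.0385 in the other comparisons. Values for arrays of different number are not given beside them. No label states that the numbers pair the samples, so the reported fit held no block in any comparison. Pairing remains possible in HFD16 against ND, where the calls under the block are given beside the reported ones. Alternatives were the authors' scale, median centring, a pseudocount of 32, no dimmest genes, the mean of all probes, the replicate number as a block, the scaling step as a covariate and each array left out. Their use on the counts by role and on the list of other cell cycle genes was chosen after the data were seen.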

Additional observations from a re-analysis of the deposited data

Results flagged for a closer look

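Of the 35 other probes of members, 7 passed in HFD24 against ND and 7 in HFD16 against ND. By their brightest probes, 18.3% and 18.1% of all genes passed in these comparisons. Only rises are listed here, and that of Cdk5r2, for one, fell in HFD24 against ND. Second probes of 5 members rose against ND although the brightest probe was the one reported. That of Mki67 rose by 1.30 in HFD16 and 1.14 in HFD24 against ND. That of Ccnd2 rose by 1.51 in HFD16 and 0.90 in HFD24 against ND, and that of Cdkn2a by 0.75 in HFD16 and 0.93 in HFD24. That of Kif7, a kinesin of cilia, rose by 0.80 in HFD16 and 0.80 in HFD24, and that of Ccne2 by 1.07 in HFD16. All are log2 differences that passed limma after adjustment over all probes. The brighter Cdkn2a probe went the opposite way and was called lower in HFD16 against ND (limma adjusted p = 0.0158). That call was lost without the first ND array or the third HFD16 array (up to 0.0653). The second probes of Mki67, Cdkn2a and Ccne2 were dim, reading 44.8 to 214, 31.6 to 84.4 and 14.1 to 81.1 over all arrays. Their folds are therefore uncertain in size. Which probe of each gene reports its transcript was not tested.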

How the results depend on the processing

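The member counts depended on single arrays and on scaling, and the reason was not tested. With 1 array left out, 18 to 43 members passed in HFD24 against ND, 1 to 27 in PTFC against HFD24, 21 to 42 in HFD16 against ND, 0 in HFD24 against HFD16 and 1 to 7 in PTFC against ND. Calls over all genes moved too, over 1738 to 4939 in HFD24 against ND and 11 to 1981 in PTFC against HFD24. On the authors' scale 9 members passed in PTFC against HFD24, where 1660 of all genes passed. On that scale the medians of the members were -0.057 in HFD24 against ND and 0.15 in PTFC against HFD24. With median centring these medians were 0.14 and -0.22, 2 members passed in PTFC against ND, and 37.3% of all genes called in PTFC against HFD24 were higher. With the scaling step as a covariate 6, 26, 1 and 1 members passed in HFD24 against ND, PTFC against HFD24, HFD16 against ND and PTFC against ND, and the median in HFD24 against ND was 0.011. With the replicate block 5 members passed in PTFC against HFD24 (Ccne2, Cdkn1a and Cenpf higher, Cdk5r1 and Mcm5 lower), and the block gave 32, 38, 0 and 4 in HFD24 against ND, HFD16 against ND, HFD24 against HFD16 and PTFC against ND. Over all genes the block gave 337 calls in PTFC against HFD24, and 2830, 2766, 4 and 318 in the other comparisons in that order. Of the 41 HFD16 calls 37 remained under the block. No called member changed direction. Differences below the test did: on the authors' scale Ccna1 (0.11) and Cdk1 (0.44) in PTFC against HFD24, and Cdk1 (-0.35) in HFD16 against ND. Median centring turned Mki67 in HFD24 against ND (0.024), in PTFC against HFD24 (-0.088) and in PTFC against ND (-0.064), Cdk1 in PTFC against HFD24 (0.075) and in HFD16 against ND (-0.12), and Ccne2 in PTFC against ND (-0.068). The mean of all probes turned Mki67 in HFD24 against ND (0.50), PTFC against HFD24 (-0.45) and HFD16 against ND (0.33). The scaling step turned Ccna2 (-0.018), Ccnd2 (-0.17), Cdk1 (0.016), Ccnd1 (-0.50) and Cdkn1a (-0.050) in HFD24 against ND, Cenpf (0.19) in HFD16 against ND, and Top2a (-0.27) and Ccnd1 (-0.055) in PTFC against ND. With 1 array left out, HFD24 against ND ranged over -0.30 to 0.082 for Mki67, -0.23 to 0.060 for Cdk1, -0.058 to 0.11 for Ccnd1 and -0.067 to 0.50 for Cdkn1a, and Cdk1 over -0.16 to 0.13 in PTFC against HFD24. Cenpf ranged over -0.57 to 0.068 in HFD16 against ND, and Top2a over -0.49 to 0.14 and Ccna2 over -0.64 to 0.035 in HFD24 against HFD16. In PTFC against ND the range was -0.16 to 0.21 for Ccne2, -0.092 to 0.29 for Mki67 and -0.60 to 0.016 for Ccna2. The number of arrays and, for 25 members, dim signal limit the precision.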
